A study of Mus musculus with 30 samples.

Results

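Older L1 copies are the LINE-1 insertions of the mouse genome that lie outside the young L1Md families. They were taken as every row of the deposited table that was annotated as a transposable element of the L1 superfamily and whose repeat name does not start with L1Md. The rule found 43683 copies among 319797 repeat copies and 382367 listed units in all, and used no measured value. The copies carry 126 repeat names, called families here, and fall into subgroups by name. Lx has 17269 copies in 21 families, L1_Mus 7771 copies in 4 families, and L1_Mur 3417 copies in 3 families. L1VL and L1_Rod together have 1914 copies, and the mammalian subgroup, whose names start with L1M or L1P, has 11730 copies in 87 families. HAL1 elements account for 593 copies, and the single family L1_Mm for 989.

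The libraries are TT-seq, in which newly made RNA is labelled for a short pulse with 4-thiouridine, fragmented and purified, so that reads report transcription rather than stored RNA. They came from 1 mouse embryonic stem cell line, dTKO, with the labelled genotype Suv39h1fl/fl ; Suv39h2-/- ; Setdb1fl/fl, grown in serum with LIF. All groups, the baseline included, thus carry the labelled loss of Suv39h2. Cells were collected at 0, 3, 12, 24 and 48 h after the addition of auxin and dTAG13, compounds that trigger degradation of proteins carrying a matching tag. The labels do not name the tagged proteins, and the study's design text states that H3K9 methyltransferases are ablated and that 0 h is the baseline. Each time has 3 biological repeats, each repeat being 1 library that was sequenced in 2 runs. The samples are of 1 line, so the spread between repeats does not include variation between independent lines.

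LINE-1 elements move by copying their RNA back into DNA, and most insertions are cut short at the 5′ end and can no longer move. The L1Md families are the youngest in the mouse, the Lx, L1_Mus and L1_Mur families amplified earlier in the rodent lineage, and L1M families are shared with other mammals and have decayed furthest. HAL1 elements are L1 relatives that kept only the first open reading frame. Trimethylation of histone H3 on lysine 9, written by Setdb1 and by the Suv39h enzymes, marks many transposable elements in embryonic stem cells. It is best known there for silencing endogenous retroviruses, whose long terminal repeats (LTRs) act as promoters, and younger L1 elements.

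Sequences of 3 older L1 copies are shown because a transcript or promoter table of the same genome build covers them, and because they include a copy that rose, a copy that fell and a member of the largest subgroup. Capitals mark each CpG dinucleotide, the site of DNA methylation in mammals, and all are written 5′ to 3′ on the strand of the copy. L1MC1_dup3805 (chr12:22117459-22117725, minus strand, mm10) lies whole within an exon of the long intergenic non-coding RNA Gm4425, from whose GENCODE M21 transcript its 267 bases were read.
L1MC1_dup3805: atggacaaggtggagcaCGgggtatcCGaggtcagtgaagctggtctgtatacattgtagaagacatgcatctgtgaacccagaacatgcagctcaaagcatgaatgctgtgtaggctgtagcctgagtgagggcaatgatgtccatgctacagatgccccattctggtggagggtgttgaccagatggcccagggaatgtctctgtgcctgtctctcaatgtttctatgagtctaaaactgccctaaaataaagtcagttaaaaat
L1M5_dup8593 (chr9:97066012-97066745, minus strand, mm10) lies in an exon of the long intergenic non-coding RNA Gm19325. Its 300 bases at chr9:97066446-97066745 were read from the GENCODE M21 transcript.
L1M5_dup8593: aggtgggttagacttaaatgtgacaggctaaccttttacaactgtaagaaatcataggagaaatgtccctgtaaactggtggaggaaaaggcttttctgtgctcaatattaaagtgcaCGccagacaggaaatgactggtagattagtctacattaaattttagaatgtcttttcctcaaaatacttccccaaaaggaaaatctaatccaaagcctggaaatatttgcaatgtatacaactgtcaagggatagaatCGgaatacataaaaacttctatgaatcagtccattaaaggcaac
Lx2_dup4715 (chr4:147410168-147411771, plus strand, mm10) overlaps the promoter window of Gm46898. The 300 bases at chr4:147411472-147411771 are that window in RefSeq's table for GRCm38.p6.
Lx2_dup4715: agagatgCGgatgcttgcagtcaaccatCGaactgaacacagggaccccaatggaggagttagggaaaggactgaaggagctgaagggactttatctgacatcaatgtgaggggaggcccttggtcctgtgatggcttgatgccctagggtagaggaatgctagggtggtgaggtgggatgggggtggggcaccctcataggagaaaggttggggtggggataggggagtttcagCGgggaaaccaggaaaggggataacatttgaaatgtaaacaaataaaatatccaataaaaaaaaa

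The printed sequences hold 2, 2 and 3 CpG dinucleotides in the order shown, which is 0.136, 0.203 and 0.197 times the number that their own C and G content would give. Of 32851 promoter windows of the same length in the RefSeq table, 94.6% hold at least 1 CpG, the median is 7, and 31.4% hold no more than Lx2_dup4715. In scaled reads, the deposited unit of reads divided by 1 size factor per library, L1MC1_dup3805 had 48.7, 59.7 and 45.1 in the 48 h libraries, against 17.1, 28.3 and 28.3 at 0 h. All 3 libraries at 48 h were above all at 0 h, and the copy rose (log2 change 1.06 ± 0.32 SE, adjusted p = 0.0158, limma). L1M5_dup8593 had 17.7, 16.3 and 21.4 at 48 h, against 35.8, 41.6 and 29.1 at 0 h, and fell (log2 change -0.90 ± 0.24 SE, adjusted p = 0.00798, limma). Lx2_dup4715 averaged 15.4 ± 4.74 at 48 h and 8.92 ± 2.10 at 0 h (SD, n = 3 each), and did not pass the test (log2 change 0.71, adjusted p = 0.22, limma). The first 2 copies lie in exons of other transcripts, so reads of the copy and of its host RNA cannot be told apart. The sequences were chosen for being covered by those tables and with their values known.

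Libraries held 37122088 to 42293639 recovered reads over all listed units, of which 73016 to 104595 lay in older L1 copies. Older L1 made up 4.73 to 8.81% of the reads in repeat copies. All 8 embryonic stem cell markers on the list were present in every library, and 7 of them had lower means at 48 h than at 0 h on the deposited scale. Pou5f1 averaged 461 scaled reads at 48 h and 974 at 0 h and Nanog 1005 at 48 h and 1755 at 0 h, while Zfp42 was higher, at 2898 and 1602. The 8 markers summed to 10213 to 10675 in the 48 h libraries, against 15565 to 17300.1 at 0 h. Of 6 fibroblast markers, 5 were low per length at 0 h (0.822 to 8.85 scaled reads per kb) and Vim, which embryonic stem cells also express, stood at 76.0. The means of 5 of the 6 were higher at 48 h than at 0 h, Col1a1 at 191 against 149, Col1a2 at 163 against 101 and Col3a1 at 69.5 against 31.4, while Thy1 was lower, at 4.08 against 18.1. The 6 summed to 1030.2 to 1221 scaled reads in the 48 h libraries, against 949 to 1020 at 0 h, and none was at 0. The part of these markers in the L1 results was not tested. In bulk samples, fewer cells of a type and less RNA per cell cannot be told apart. On the deposited scale the median gene was lower at 48 h than at 0 h by a log2 difference of -0.37, and it differed by -0.24, 0.18 and -0.08 at 3, 12 and 24 h. The design text says that a yeast RNA spike-in served to adjust signal between times. Rescaling so that the genes' typical change is near 0, as a second scale, moves a gene's log2 change by a median of 0.24, -0.18, 0.08 and 0.36 at 3, 12, 24 and 48 h. Weakly read rows can move by other amounts, because 1 is added to each value before the log. The second replicates at 12 h and at 24 h were high for all older L1 subgroups on the deposited scale.

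The first question was how much nascent RNA each subgroup gave over the time course, summed over every listed copy whatever its level. Older L1 as a whole was lower at 3 h than at 0 h and higher at 12, 24 and 48 h. The sum averaged 63362 ± 3651, 54524 ± 4199, 83331 ± 11009, 76539 ± 11896 and 74030 ± 1944 scaled reads at 0, 3, 12, 24 and 48 h (SD, n = 3 each). The libraries of each later time lay wholly above those of 0 h, apart from 3 h, where they lay wholly below. On the second scale the 3 h and 0 h libraries overlapped, and those of 12, 24 and 48 h were above 0 h. The order of the late times depended on the scale. The log2 differences from 0 h at 12, 24 and 48 h were 0.40, 0.27 and 0.22 on the deposited scale, and 0.21, 0.34 and 0.59 on the second. For Lx, L1_Mus and L1_Mur too, the largest difference on the second scale was at 48 h. Subgroup sums are given as a description, without a test.

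Lx, the subgroup with the most copies, had 21449, 24352 and 22581 scaled reads in the 0 h libraries and 20177, 17676 and 20678 in those of 3 h. The 12 h libraries held 26752, 35080 and 31162, the 24 h libraries 26512, 34124 and 25720, and the 48 h libraries 28030.4, 29342 and 28979. The 48 h libraries were all above the 0 h libraries, with a log2 difference of means of 0.34. Leaving out the high second replicates, Lx averaged 28957 at 12 h and 26116 at 24 h, against 22794 at 0 h. L1_Mus averaged 15948 at 48 h and 13646 at 0 h, a log2 difference of 0.22. L1_Mur averaged 5610.1 at 48 h and 4616 at 0 h, a log2 difference of 0.28. The libraries of both times were apart in each of these rodent subgroups.

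The mammalian subgroup stood near its 0 h level at the late times on the deposited scale. Its sum averaged 17631 ± 493 scaled reads at 48 h and 17878 ± 883 at 0 h (SD, n = 3 each), and the libraries of both times overlapped. They overlapped at 24 h too, while at 12 h the log2 difference was 0.24 and at 3 h -0.24, both without overlap on the deposited scale and with overlap on the second. L1_Mm stood at the other end, with 1775 ± 76.6 scaled reads at 48 h against 846 ± 57.0 at 0 h (SD, n = 3 each), a log2 difference of 1.07. For comparison, young L1 differed by 0.41 between 48 h and 0 h on the log2 scale, and the ancient repeats L2 and MIR by -0.16. After rescaling, the 48 h differences were 0.70 for Lx, 0.59 for L1_Mus, 0.65 for L1_Mur and 0.34 for the mammalian subgroup, so the mammalian sum is level with 0 h on the deposited scale alone.

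**Figure D1:**
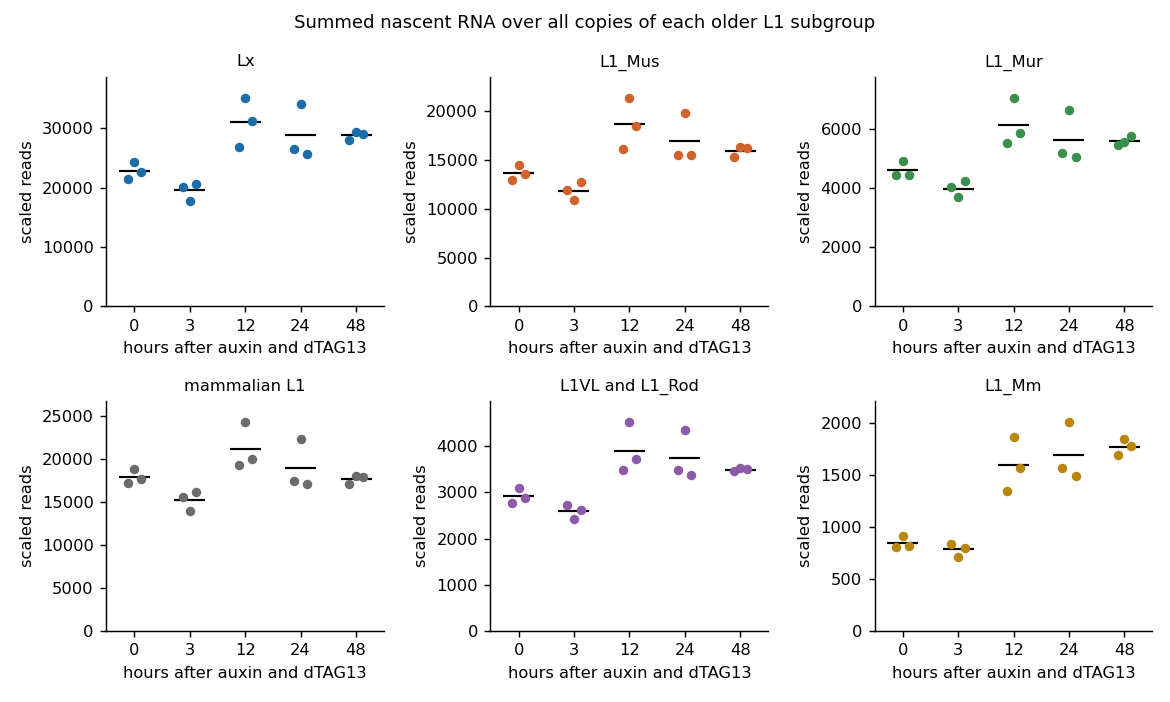
Summed nascent RNA of 6 older L1 subgroups, in scaled reads (y axis), at each time after auxin and dTAG13 (x axis, hours). Points are the 3 libraries of a time and bars their means; Lx averages 28784 at 48 h and 22794 at 0 h, the mammalian subgroup 17631 at 48 h and 17878 at 0 h.

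Ratios of 2 subgroups within a library do not depend on how libraries were scaled. The ratio of Lx to mammalian L1 averaged 1.27 ± 0.0197, 1.28 ± 0.0156, 1.47 ± 0.0903, 1.52 ± 0.00972 and 1.63 ± 0.00888 at 0, 3, 12, 24 and 48 h (SD, n = 3 each). Every library at 12, 24 and 48 h was above every library at 0 h, and the 3 h and 0 h libraries overlapped. The ratio of L1_Mus to mammalian L1 averaged 0.763, 0.781, 0.881, 0.897 and 0.904 over the same times. That of L1_Mur averaged 0.258, 0.263, 0.291, 0.299 and 0.318. The ratio of L1_Mm to mammalian L1 averaged 0.101 at 48 h and 0.0473 at 0 h, so the 4 rodent subgroups named here all stood higher against mammalian L1 at 48 h than at 0 h, in every library.

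Older L1 was also set against younger and more ancient repeats. The ratio of all older L1 to young L1 averaged 1.19, 1.15, 1.03, 0.983 and 1.04 at 0, 3, 12, 24 and 48 h, and was lower at 12, 24 and 48 h than at 0 h in every library. Lx itself stood at 0.405 times young L1 at 48 h and 0.427 times at 0 h, again without overlap. Mammalian L1 in turn stood at 1.49 times the sum of L2 and MIR at 48 h and 1.35 times at 0 h. Each of these ratios compares sums over copies that share libraries, and shows unequal change, not which of the 2 sums changed.

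**Figure D2:**
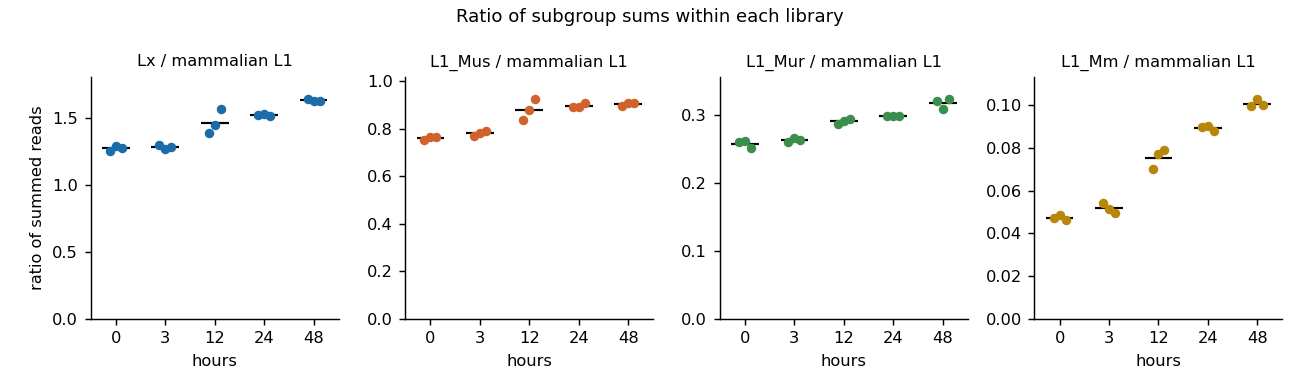
Ratio of the summed reads of Lx, L1_Mus, L1_Mur and L1_Mm to those of mammalian L1 within each library (y axis, no unit), by hours after auxin and dTAG13 (x axis). Points are libraries and bars are means of 3; the Lx ratio averages 1.63 at 48 h and 1.27 at 0 h.

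Older L1 copies were sparsely read, and more of them held a read at the late times. The share of older L1 copies with at least 1 read averaged 36.4, 37.5, 44.2, 43.2 and 46.8% at 0, 3, 12, 24 and 48 h. It averaged 47.5% at 48 h and 35.5% at 0 h for Lx, 47.8% and 32.9% for L1_Mus, and 48.8% and 34.0% for L1_Mur. Mammalian copies were at 44.2% at 48 h and 41.3% at 0 h, and L2 and MIR copies at 43.6% and 43.5%. These shares were not adjusted for read depth. Per length, mammalian L1 had the most reads of the subgroups, at 4.98 scaled reads per kb at 48 h and 5.05 at 0 h. Lx had 2.26 and 1.79, and L1_Mm 1.39 and 0.663. Mammalian copies were also the shortest, with a median of 238 bases against 491 for Lx and 1037 for L1_Mm. The part of copy length in these densities was not tested.

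Copies too weakly read to be tested one by one carried much of the difference. The copies below a mean of 10 scaled reads over the 15 libraries summed to 41986 ± 1274 scaled reads at 48 h and 32400.1 ± 1993 at 0 h (SD, n = 3 each), a log2 difference of 0.37. The 1147 copies at or above that mean, 2.63% of all, differed by 0.05 in sum. Within L1_Mur the weakly read copies differed by 0.57 and the others by -0.12. By length, copies of under 500 bases differed by 0.11 between 48 h and 0 h, those of 500 to under 2000 bases by 0.35, those of 2000 to under 5000 bases by 0.40, and the 638 copies of at least 5000 bases by 0.01.

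Families, each the sum of all copies of 1 repeat name, were then tested with limma on log2(value + 1) in 1 fit of all 15 libraries, adjusted by Benjamini-Hochberg over all repeat families, with a call at an adjusted p under 0.05. Of 126 older L1 families, 106 reached a mean of 10 scaled reads and were tested. At 3 h none rose, beside 1.55% of all 774 repeat families, and 1 fell, beside 1.94%. At 3 h limma gave an unadjusted p below 0.05 to 0 rises and 27 falls, and edgeR and DESeq2 called 0 rises too. DESeq2 gave an adjusted p to 19 of the 106 families at 3 h, and an unadjusted p below 0.05 to 0 rises. At 12 h, 42 rose and none fell, beside 32.9% and 0.388% of all families, with 1 fall at an unadjusted p below 0.05 and 0 called falls in edgeR or DESeq2. At 24 h, 24 rose and 1 fell, beside 24.4% and 1.03%. At 48 h, 21 rose and 4 fell, beside 23.4% and 4.91%. The median log2 change of the tested older L1 families was -0.22, 0.31, 0.15 and 0.09 at 3, 12, 24 and 48 h, and that of all families -0.23, 0.29, 0.11 and 0.01.

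The called families were spread unevenly over the subgroups. Lx families rose in 20, 12 and 11 of 21 cases at 12, 24 and 48 h, L1_Mus families in 4, 3 and 2 of 4, and L1_Mur families in 3, 2 and 2 of 3. Mammalian families rose in 10, 3 and 3 of 68 cases, and 1 fell at 24 h and 4 at 48 h. The 24 h fall was that of L1M6 (adjusted p = 0.044, limma), a call lost in DESeq2 (adjusted p = 0.083). It was also lost without the first or second 0 h replicate and without any 1 of the 24 h replicates (adjusted p = 0.055 to 0.14, limma). The 12 h count depended on single libraries, with 20 rises without the second 12 h replicate and 24 without the first 0 h replicate. At 24 h it was 12 without the first 0 h replicate or without the second 24 h replicate. On the second scale there were 80 rises and 1 fall at 48 h, with 52 and 1 at 24 h.

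The largest family rise at 48 h was that of Lx2A1, an Lx family of 143 copies. It had 114, 131 and 107 scaled reads at 48 h, against 41.5, 36.6 and 37.7 at 0 h (log2 change 1.57 ± 0.18 SE, adjusted p = 1.5e-16, limma). Its mean climbed over 43.3 at 3 h, 76.7 at 12 h and 93.0 at 24 h, and no later library from 12 h on overlapped 0 h. L1_Mm, with 989 copies, had 1696, 1848 and 1782 at 48 h, against 809, 912 and 818 at 0 h (log2 change 1.07 ± 0.12 SE, adjusted p = 9.9e-17, limma). MusHAL1, a mouse HAL1 family of 289 copies, averaged 400.3 ± 25.1 at 48 h and 194.7 ± 11.0 at 0 h (SD, n = 3 each). It rose by 1.04 on the log2 scale (adjusted p = 3.2e-12, limma). L1M, a mammalian family of 13 copies, averaged 59.0 ± 11.9 at 48 h and 24.2 ± 7.47 at 0 h, and rose by 1.27 (adjusted p = 4.1e-08, limma).

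All 4 families that fell at 48 h were mammalian. L1M6, with 9 copies, had 5.91, 9.30 and 7.64 scaled reads at 48 h, against 17.1, 18.3 and 13.7 at 0 h (log2 change -1.02 ± 0.36 SE, adjusted p = 0.017, limma). L1ME4b averaged 135.0 ± 12.8 at 48 h and 192.1 ± 11.7 at 0 h (log2 change -0.51, adjusted p = 0.0043, limma). L1M7, another family of 9 copies, averaged 180.8 ± 10.8 and 250.7 ± 12.9 (log2 change -0.47, adjusted p = 0.0057, limma). L1MC4 averaged 481.3 ± 19 at 48 h and 612.6 ± 66 at 0 h (log2 change -0.34, adjusted p = 0.036, limma). On the second scale only L1M6 kept its call, and L1MC4 stood at 0.019. L1M6 lost its call when the first or second 0 h replicate or the first 48 h replicate was left out, and L1ME4b when the first 48 h replicate was (adjusted p = 0.054, limma). L1MC4 lost its call without a trend (adjusted p = 0.082, limma) and in 5 of the 6 fits without 1 library (adjusted p = 0.064 to 0.19, limma). At 3 h the single family called was L1ME3D, at 124.7 ± 4.63 against 176.9 ± 6.63 at 0 h (log2 change -0.50, adjusted p = 0.046, limma), a call that was lost on the second scale, with no minimum, with no trend and in all 6 fits without 1 library (adjusted p = 0.076 to 0.22, limma).

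The families with the most reads at 0 h differed little between 48 h and 0 h on the deposited scale. Lx8 averaged 3910 ± 91.6 at 48 h and 3331 ± 251 at 0 h (log2 change 0.23, adjusted p = 0.14, limma). L1_Mus3, the most read older L1 family, averaged 7559 ± 272 and 6919 ± 442, with a log2 change of 0.13. L1_Mur3 averaged 2640 ± 51.6 and 2310 ± 167, and L1_Rod 1122 ± 44.4 and 1042 ± 70.0. L1M5, the most read mammalian family, averaged 1298 ± 53.9 at 48 h and 1448 ± 94.2 at 0 h (log2 change -0.16), and HAL1 285.8 ± 3.01 and 335.0 ± 56.7 (log2 change -0.22). None of these 6 families passed the test at 48 h on the deposited scale in the fit of all libraries, while Lx8 (adjusted p = 0.0016) and L1_Mur3 (adjusted p = 0.011) did in a limma fit of only the times compared. Rescaled, 5 of the 6 rose, Lx8 by 0.60, L1_Mus3 by 0.49, L1_Mur3 by 0.56, L1_Rod by 0.47 and L1M5 by 0.21 (adjusted p = 0.00051 for L1M5 and lower for the others, limma), and HAL1 stood at 0.15.

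Single copies were tested in the same way, adjusted over all 13519 repeat copies with a mean of at least 10 scaled reads, of which 1147 were older L1. At 3 h, 7 rose and 5 fell, beside 2.5% and 0.266% of all tested repeat copies. At 12 h, 139 rose and 2 fell, beside 20.8% and 1.83%. At 24 h, 140 rose and 26 fell, beside 25.4% and 6.25%. At 48 h, 132 rose and 118 fell, beside 26% and 12.3%. As shares of the 1147, rises made up 12.1, 12.2 and 11.5% at 12, 24 and 48 h, under the share for all repeat copies at each time. Among the 7932 tested copies outside the LTR class, rises were 7.88, 7.34 and 6.38% at these times and falls 2.84, 9.06 and 16.1%. At 48 h young L1 gave 192 rises and 17 falls among 881 tested copies.

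At 48 h, 53 of 437 tested Lx copies rose and 42 fell, and 32 of 216 L1_Mus copies rose and 26 fell. Of 103 L1_Mur copies 5 rose and 9 fell, and of 293 mammalian copies 22 rose and 30 fell. All 8 L1_Mm copies called at 48 h, of 20 tested, rose. The 132 rises had a median log2 change of 2.41, and the 118 falls one of -0.90. Of the rises 31 had no read in any 0 h library and 36 had a mean of at least 10 there, so most entered the test through their later values, while all 118 falls had that mean at 0 h. With the minimum set at 0 h alone, 32 rose and 114 fell. Joined within 20 kb, the rises came from 96 loci and the falls from 102. Rescaling gave 226 rises and 32 falls at 48 h. The falls numbered 63 without the second 0 h replicate, and the 24 h falls 44 without the second 24 h replicate, 15 without the third 0 h replicate, 15 without the first 24 h replicate, 17 without the first 0 h replicate, 12 without the second 0 h replicate and 10 without the third 24 h replicate.

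**Figure D3:**
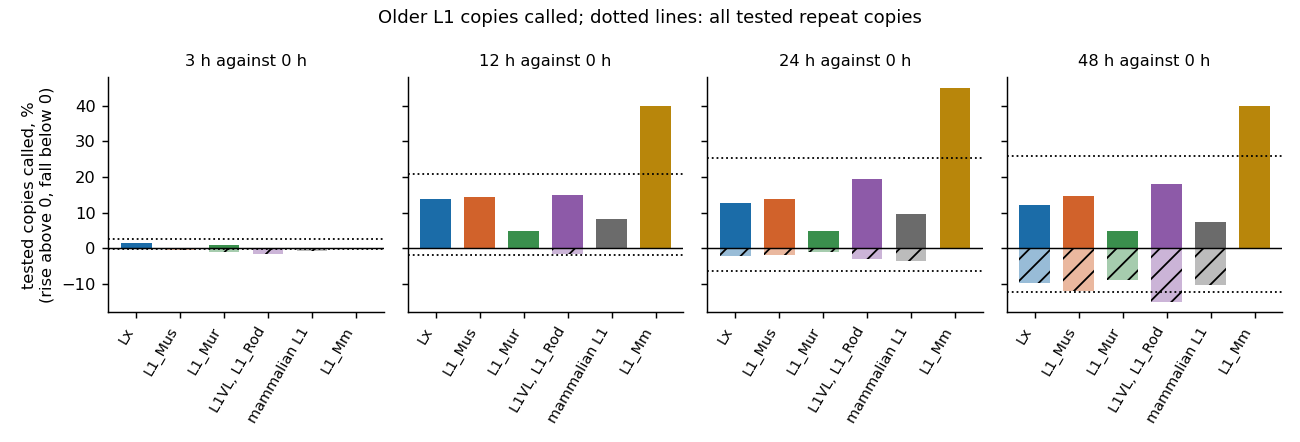
Percentage of tested older L1 copies called up (bars above 0) and down (hatched bars below 0) against 0 h, by subgroup, at 3, 12, 24 and 48 h. Dotted lines give all 13519 tested repeat copies, 26% up and 12.3% down at 48 h; L1_Mm, with 20 tested copies, is above the upper line from 12 h on.

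The largest rises at 48 h were of copies that were silent or nearly so at 0 h. L1_Mus1_dup4649 (chr3:94135464-94136340, plus strand, mm10) had no read at 0 h and 91.6, 71.3 and 74.1 scaled reads at 48 h, at least 95-fold higher than a floor of 3 reads over the 0 h libraries (adjusted p = 1.4e-08, limma). Its mean was 33.5 at 12 h and 77.9 at 24 h, so it had reached its 48 h level by 24 h. L1_Mus1_dup4654 (chr3:94211612-94212485, plus strand) had no read at 0 h and 72.4, 81.3 and 67.2 at 48 h, at least 88.3-fold higher. Lx9_dup3549 (chr1:174463699-174463919, plus strand) had none at 0 h and 82.0, 62.8 and 65.7 at 48 h, at least 84.4-fold higher. Each of these copies had an LTR copy that also rose just upstream on the same strand. For L1_Mus1_dup4649 it was an RLTR13G copy 533 bases away, for L1_Mus1_dup4654 an ETnERV-int copy 907 bases away. For Lx9_dup3549 it was a MMERVK10C-int copy 435 bases away, which averaged 3007 ± 178 scaled reads at 48 h and 48.0 ± 19.4 at 0 h (SD, n = 3 each). The RLTR13G and ETnERV-int copies were weaker, at 28.9 ± 16.8 and 26.4 ± 5.71 at 48 h (SD, n = 3 each). The L1_Mus1 copies beside them averaged 79.0 and 73.7, all without adjustment for length.

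A pair of Lx copies were already higher at 3 h. Lx_dup4963 (chr4:3234676-3236852, plus strand, mm10) had 9.45, 4.45 and 5.43 scaled reads at 3 h and 125, 121 and 110 at 48 h, against 1.63, 0 and 0.857 at 0 h. It rose at 3 h (log2 change 2.08, adjusted p = 0.0016) and at 48 h (6.14, adjusted p = 8.4e-10, both limma). The 3 h call was lost in a limma fit of only the times compared (adjusted p = 0.172). The 0 h value rests on 3 reads, and the ratio of 48 h to 0 h was 142, with a counting interval of 48.4 to 693. Its nearest LTR copy called up lay 34472 bases away. Lx7_dup35760 (chr16:49033582-49034559, plus strand) had 15.5, 14.0 and 14.0 at 3 h. It had 340, 361 and 363 at 48 h, against 7.32, 3.33 and 3.43 at 0 h (log2 change 6.04 ± 0.22 SE, adjusted p = 2.4e-11, limma). An MTEa copy, an LTR of the ERVL-MaLR class, lay 1902 bases downstream on the same strand and averaged 63.5 at 48 h and 1.11 at 0 h. A further Lx copy, Lx3A_dup8985 (chr19:7961671-7965077), had no read at 0 h and 3.38, 0.636 and 2.33 at 3 h. Its 3 h call (adjusted p = 0.048, limma) was lost in edgeR (adjusted p = 0.134) and in 5 of the 6 fits without 1 library.

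Of the copies that already averaged 10 scaled reads or more in the 0 h libraries, Lx7_dup37933, on chromosome 18 within Usp14, rose most. It had 214, 215 and 232 scaled reads at 48 h, against 15.4, 15.0 and 15.4 at 0 h (log2 change 3.77 ± 0.25 SE, adjusted p = 9.8e-09, limma). An RLTR1B copy 1835 bases upstream on the same strand averaged 281 at 48 h and 15.6 at 0 h. Lx8_dup22562 (chr9:19098744-19099068) averaged 64.5 ± 4.56 at 48 h and 14.5 ± 2.47 at 0 h, with an RLTR9D copy that rose 367 bases upstream. L1_Mus2_dup9485 (chr9:19111168-19115473) averaged 325 ± 23.4 at 48 h and 79.3 ± 10.8 at 0 h (SD, n = 3 each). The last 2 copies lie within 20 kb of each other near the olfactory receptor gene Olfr836. Of the 54 tested older L1 copies on chromosome 9, 16 rose at 48 h, beside 26% of all tested repeat copies of the genome.

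L1_Mm rises were clustered on chromosome X. Of 9 tested L1_Mm copies there 8 rose at 48 h, and no other L1_Mm copy did. L1_Mm_dup2572 (chrX:3861203-3864020, minus strand, mm10) had no read in the 0 h libraries. Its 12 h libraries held 24.5, 47.3 and 59.7 scaled reads, its 24 h libraries 53.2, 91.7 and 50.4, and its 48 h libraries 59.8, 47.3 and 46.6. Against the floor, the 12 h mean stood at least 52.2-fold higher. L1_Mm_dup2575 (chrX:4091806-4094646, plus strand) had none at 0 h and 41.4, 28.2 and 43.9 at 12 h, at least 45.6-fold higher. For 8 rises the nearest protein-coding gene was a member of the Btbd35f family, and 5 of these copies lay within 5 kb of an LTR copy called up. The copies are similar to each other and their reads may have been shared between them. Of the 1147 tested copies, 6 had values identical to those of another, and none of the 6 was L1_Mm. Of these, 2, Lx6_dup13673 and Lx6_dup13682, rose at 48 h. Identical values cannot show how far copies that are merely similar share reads.

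The largest falls were smaller and of weakly read copies. Lx2_dup17933, on chromosome 18 downstream of Dcp2, had 2.95, 1.55 and 1.53 scaled reads at 48 h, against 21.1, 20.0 and 27.4 at 0 h (log2 change -3.01 ± 0.30 SE, adjusted p = 9.1e-07, limma). It had already fallen at 24 h, where it averaged 2.63 (log2 change -2.73, adjusted p = 3.3e-06, limma). L1_Mur2_dup5221 (chr4:146567633-146571673) had 7.39, 0 and 0 at 48 h, against 14.6, 13.3 and 15.4 at 0 h. Its call (adjusted p = 0.030, limma) was lost in edgeR (adjusted p = 0.104) and DESeq2 (adjusted p = 0.112), and its 12 h values of 0.845, 24.6 and 0.877 varied just as widely. Lx3_Mus_dup10011, in Gm281, averaged 3.81 ± 2.66 at 48 h and 15.0 ± 1.49 at 0 h (SD, n = 3 each). L1_Mus1_dup3444, in the zinc finger gene Zfp973, averaged 7.10 ± 5.44 and 21.8 ± 8.69, and lost its call on the second scale (adjusted p = 0.055, limma). L1_Rod_dup234, in Vwa3b, averaged 6.02 ± 3.3 at 48 h and 20.5 ± 5.4 at 0 h.

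Falls at the earlier times were few. At 3 h L1_Mur1_dup6246 (chr14:6415608-6415974) had 6.08, 3.18 and 8.53 scaled reads, against 28.45, 16.6 and 30.0 at 0 h (log2 change -1.95, adjusted p = 0.041, limma). L1MB1_dup2466, on chromosome 18 downstream of the pluripotency-associated gene Fbxo15, had 13.5, 7.0 and 9.3 at 3 h, against 20.3, 26.6 and 24.9 at 0 h (adjusted p = 0.049, limma), and stood at 23.8 ± 0.952 at 48 h. Both 3 h calls were lost in most alternative fits, including that with a replicate block. At 12 h L1VL2_dup3359, within the mitochondrial ribosome gene Mrpl45, averaged 13.7 ± 3.3, against 26.4 ± 2.36 at 0 h. Lx3A_dup7373, 565 bases downstream of the receptor phosphatase gene Ptprg, averaged 7.61 ± 0.584 at 12 h and 14.8 ± 2.24 at 0 h. Its call was lost in DESeq2 (adjusted p = 0.12), with the minimum at 0 h alone, with no minimum, with only the times compared and in 3 of the 6 fits without 1 library. Ptprg itself was not called at 12 h (log2 change -0.07), and at 48 h it fell, to 14612 ± 295 against 22031 ± 1982 at 0 h (log2 change -0.59, adjusted p = 1.1e-05, limma). At 24 h Lx9_dup29656 (chr10:44734452-44734657) averaged 6.98 ± 1.89, against 22.2 ± 2.21 at 0 h (log2 change -1.56, adjusted p = 0.0040, limma).

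The copies with the most reads at 0 h were a mixed set. L1MEg_dup958, a mammalian fragment of 78 bases (chr5:5781494-5781571) opposite to an exon of the non-coding RNA Gm26825, had 749, 822 and 836 scaled reads at 48 h, against 736, 700 and 887 at 0 h, and the times overlapped. Rescaled, it rose at 48 h (log2 change 0.42, adjusted p = 0.0051, limma). L1_Mus3_dup11828 (chr4:147367187-147367694), within Zfp978, averaged 507 ± 53.2 at 48 h and 572 ± 62.4 at 0 h, with a log2 change of -0.17 that was 0.19 on the second scale. Lx2_dup18380 (chr19:40114996-40119907), downstream of the cytochrome gene Cyp2c50, had 300, 314 and 332 at 48 h, against 391, 487 and 504 at 0 h. It fell by 0.54 on the log2 scale (adjusted p = 0.0039, limma), a call lost on the second scale (adjusted p = 0.266). Cyp2c50 had 1.54 ± 1.33 scaled reads at 48 h and 0.542 ± 0.939 at 0 h, far under the Lx copy downstream of it.

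Many older L1 copies that rose had an LTR copy that rose nearby. At 48 h, 58 of the 132 rises (43.9%) were within 5 kb of an LTR copy called up at the same time, against 27 of 897 uncalled copies (3.01%) and 3 of 118 falls (2.54%). The same shares were 37.4% of rises and 4.87% of uncalled copies at 12 h, and 42.9% and 2.85% at 24 h. The median distance to an LTR copy called up was 6.25 kb for rises, 438 kb for falls and 359 kb for uncalled copies at 48 h. In 44 of the 58 cases the LTR copy was upstream on the same strand, and in 10 downstream on the same strand. By class, 31 of these LTR copies were ERVK, 13 ERV1, 11 ERVL-MaLR and 3 ERVL, and the families met most often were MTEa and MuRRS4-int with 5 each. LTR and L1 copies were called from the same libraries and against the same 0 h controls. Of the 132 rises at 48 h, 36 averaged 10 or more scaled reads at 0 h, so most entered the test through their later values. The shares were not matched for level at 0 h or for position in genes. These rises came from 96 loci when joined within 20 kb, so copies are not independent units.

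Most subgroups held such copies. Of the rises, 23 of 53 Lx copies, 16 of 32 L1_Mus copies, 10 of 22 mammalian copies and 5 of 8 L1_Mm copies were within 5 kb of an LTR copy called up, and 1 of 5 L1_Mur copies. Among the rises of young L1 the share was 17.7%, and among those of copies that are neither LTR nor L1 it was 46.2%. Rises near an LTR copy called up had a median log2 change of 2.51, and the 74 others one of 2.28.

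Counted over all 43683 copies, whatever their level, 1005 copies (2.30%) lay within 5 kb of an LTR copy called up at 48 h. They summed to 7759 ± 174 scaled reads at 48 h and 2885 ± 166 at 0 h (SD, n = 3 each), and 68.4% of them held a read at 48 h against 26.4% at 0 h. The 42678 copies beyond 5 kb summed to 66271 ± 1770 at 48 h and 60477 ± 3532 at 0 h, and these libraries overlapped. Rescaled, the copies beyond 5 kb stood at 79383 ± 972 at 48 h and 56321 ± 805 at 0 h, without overlap, a log2 difference of 0.50. Copies within 5 kb accounted for 45.7% of the added scaled reads at 48 h, and those within 20 kb for 71.8%, but for 22.3% and 35.7% on the second scale. With LTR copies called up at 24 h (961 copies within 5 kb) and at 12 h (808 copies) the shares on the deposited scale were 30.2% and 14.2%. The copies within 5 kb added 2829, 3984 and 4874 scaled reads at 12, 24 and 48 h, and those beyond added 17140.1, 9194 and 5794. On the deposited scale Lx beyond 5 kb was higher at 48 h than at 0 h without overlap, at 25495 ± 605 against 22042 ± 1402 scaled reads, and so did L1_Mus and L1_Mur. Mammalian copies within 5 kb were 1.54-fold higher at 48 h than at 0 h and Lx copies 4.37-fold. The ratio of Lx to mammalian L1 was 1.60 ± 0.0128 at 48 h and 1.31 ± 0.0202 at 0 h when copies within 5 kb were left out, and 1.59 and 1.33 when those within 20 kb were.

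**Figure D4:**
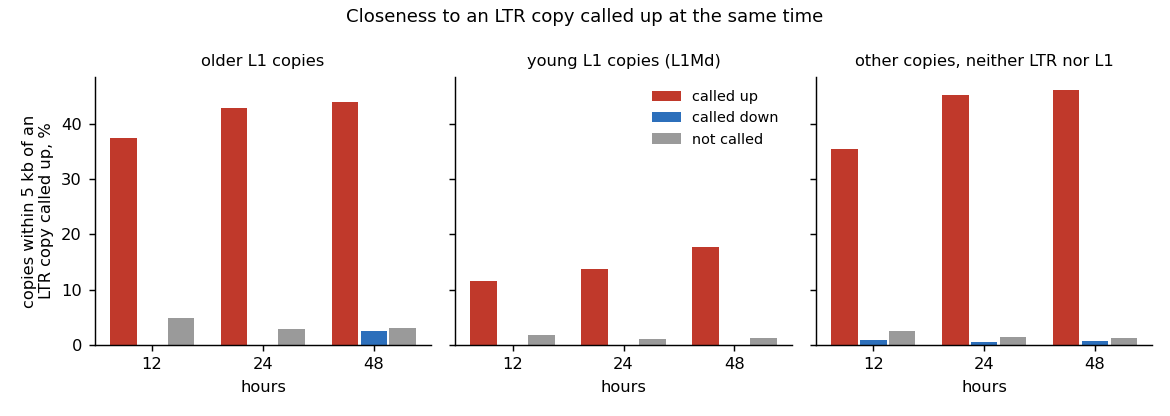
Percentage of tested copies within 5 kb of an LTR copy called up at the same time (y axis), for copies called up, called down and not called at 12, 24 and 48 h (x axis). Panels show older L1, young L1 and copies that are neither LTR nor L1; among older L1 copies at 48 h the share is 43.9% of rises, 2.54% of falls and 3.01% of uncalled copies.

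Copies were also placed relative to genes, since nascent RNA of a gene covers its introns and runs past its end. At 48 h, 53 of 118 falls (44.9%) were inside a gene on the same strand or within 10 kb downstream of one, against 578 of 897 uncalled copies (64.4%) and 29 of 132 rises (22.0%). Of the 52 such genes of falling copies that were tested, 50 fell as well, beside 58.4% of all 15261 tested genes, and their median log2 change was -0.53, against -0.84 for the copies. Among uncalled copies 343 of 572 genes fell, near that share of all genes. Of the 29 genes of rising copies 22 rose and none fell, beside 7.65% of all genes rising. Genes are counted once for each copy they hold. With a window of 5 kb the shares in or behind a gene were 31.4% of falls, 51.3% of uncalled copies and 15.2% of rises. With a window of 20 kb they were 55.1%, 72.8% and 30.3%, and of the 39 tested genes of rising copies 24 rose and 7 fell.

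Across the 653 copies in or within 10 kb downstream of a tested gene, which belong to 487 genes, the change of the copy was positively correlated with that of its gene. Pearson's r was 0.31, 0.60, 0.79 and 0.79 at 3, 12, 24 and 48 h, and Spearman's rho 0.27, 0.47, 0.53 and 0.60. These values describe copies, which share libraries, 0 h controls and in part genes, and are given without a test. Reads of a copy inside a gene and of that gene's unspliced RNA cannot be told apart in these counts.

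**Figure D5:**
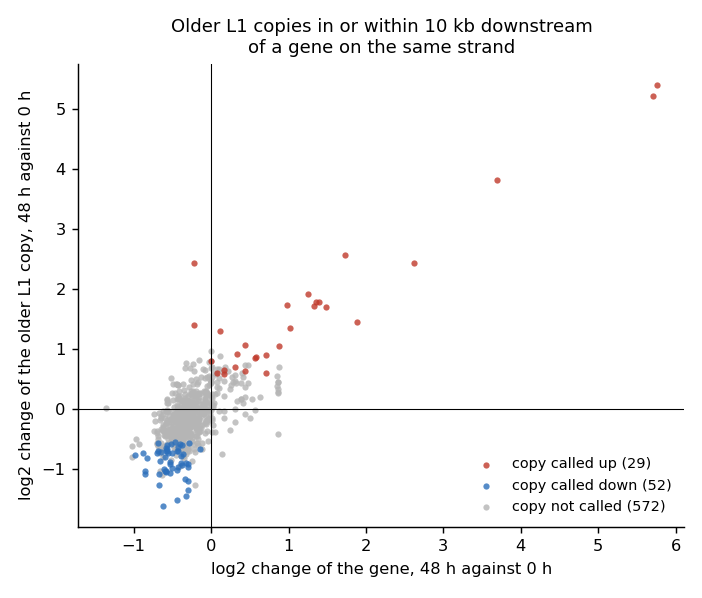
Log2 change at 48 h against 0 h of the older L1 copy (y axis) and of the same-strand gene that holds it or ends within 10 kb before it (x axis), for 653 copies. Copies called up are red, called down blue and uncalled grey; 50 of the 52 genes of falling copies and none of the 29 genes of rising copies were called down.

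A list of 36 genes of H3K9 methylation and of L1 silencing or restriction was read in the same libraries. All 36 were tested, adjusted over all genes. At 3 h none rose in limma, with 1 rise at an unadjusted p below 0.05, and 11 fell, beside 0.636% and 13.5% of all genes. At 12 h, 6 rose and 1 fell, beside 12.9% and 2.07%, and at 24 h, 1 rose and 3 fell, beside 7.21% and 12.2%. At 48 h, 1 rose and 27 fell, beside the 7.65% and 58.4% given above. The list's median log2 change was -0.42 at 48 h, with -0.37 for all genes. On the second scale the rises were 3, 8, 8 and 9 at 3, 12, 24 and 48 h, and the falls 8, 7, 13 and 13. Single libraries moved the counts: the 3 h falls ranged from 3 without the second 0 h or second 3 h replicate to 14, the 12 h rises numbered 14 without the first 12 h replicate and 2 without any of 4 other libraries, and the 24 h falls 16 without the second 24 h replicate.

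Tet2, which oxidises methylated cytosine, fell most, to 1662 ± 16.8 scaled reads at 48 h, against 4526 ± 343 at 0 h (log2 change -1.44, adjusted p = 8.4e-30, limma). Its relative Tet1 fell to 6885 ± 227, against 12556 ± 1297. Ehmt2, which methylates lysine 9 of histone H3 to lower states, averaged 230 ± 27.9 at 48 h and 379 ± 69.1 at 0 h. Trim28, the co-repressor that recruits Setdb1, averaged 2002 ± 169 and 3166 ± 239. Cbx1, which codes for a heterochromatin protein 1, and Adar, an RNA-editing enzyme, fell too. All 6 fell on both scales. Tex19.1, a placental mammal gene active in germ and embryonic stem cells, was the only one of the list to rise at 48 h on the deposited scale, at 614 ± 23.6 against 494 ± 32.1 at 0 h (log2 change 0.31, adjusted p = 0.023, limma). No gene of the list was called up at 48 h without the first 0 h, the second 48 h or the third 48 h replicate. Setdb1 RNA averaged 732 ± 46.3 at 48 h and 846 ± 24.9 at 0 h, and Suv39h1 455 ± 23.3 and 483 ± 36.3. Neither was called at 48 h on the deposited scale, while both rose there on the second (log2 change 0.15 for Setdb1 and 0.28 for Suv39h1). At 12 h both rose on the deposited scale (adjusted p = 0.046 and 0.041, limma) and on the second. Suv39h2 averaged 803 ± 69.4 at 48 h and 1091 ± 72.9 at 0 h and fell (log2 change -0.44, adjusted p = 0.0011, limma), a call lost on the second scale. The gene labelled as lost was thus read in these libraries, and where in the gene its reads lie was not analysed here, so the value does not check the label. Degradation of a tagged protein acts on the protein, so these RNA levels do not check it.

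The authors' deposited table carries its own calls for each copy. Older L1 copies called up in the authors' deposited table numbered 7, 178, 340 and 515 at 3, 12, 24 and 48 h, and those called down 0, 2, 6 and 69. At 48 h the authors' deposited table called up 1.34% of Lx, 1.58% of L1_Mus, 1.35% of L1_Mur, 0.375% of mammalian and 3.13% of L1_Mm copies, beside 1.66% of young L1 and 2.48% of all repeat copies. Of the 132 tested copies that rose at 48 h in limma, 103 were also called up in the authors' deposited table. Of the 118 that fell in limma, 24 were also called down there.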

How the data were processed

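TT-seq was read from 30 GEO samples, which are 15 libraries (3 biological repeats at each of 5 times) sequenced in 2 runs, the runs of a library counting as 1 replicate. Per the submitters' processing notes, STAR 2.5.2a, DESeq2 and deepTools were used with mm10 (GRCm38). Settings, strand use and the handling of reads that map to several places were not given in the sources used here. For each library the authors deposited a normalized signal, here called scaled reads. Dividing by each library's smallest step gave whole reads, within 0.05, for at least 99.9972% of values, so the deposited signal is reads over 1 factor per library. The design text names a yeast spike-in for this adjustment, and whether the factors rest on it cannot be seen in the file. The authors' deposited calls were counted as given.

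Copies, families (sums over a repeat name) and genes were fitted separately with limma 3.58.1 (R 4.3.3) with an intensity trend on log2(value + 1), all 15 libraries, each later time against 0 h, 2-sided, with Benjamini-Hochberg adjustment over each class, a mean of at least 10 and a call at adjusted p under 0.05. Fold changes on this scale understate those of low copies. Counts recovered from the deposited signal were tested with edgeR 4.0.16 and DESeq2 1.42.0 as alternatives. On simulated data at these sizes limma found 18% of copies raised 2-fold and 98% of those raised 4-fold. It found 26% of copies lowered 2-fold and 80% of those lowered 4-fold. Of families changed 2-fold in either direction it found 94%. The second scale replaced each library's factor by one from the genes. Intervals and floors (3 reads) cover counting error only.

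Deviations of same-numbered repeats of different times had a median correlation of -0.02 over families, and the fit has no replicate block. This correlation was not computed over copies. It cannot see a shift shared by all families of a library, so it does not show whether the repeat numbers pair the libraries. With a replicate block, 3126 genes fell at 3 h, against 2053 without, and 2612 genes rose at 12 h, against 1972. Families named are the most read of each subgroup and the largest called changes (4 each way at 48 h, 2 at the other times). Copies named are the largest called changes without overlap (5 each way at 48 h, 2 at the other times), the 3 largest rises among those averaging 10 or more in the 0 h libraries, and the 3 most read. Genes named are the first 6 of the silencing list by adjusted p at 48 h, with Setdb1, Suv39h1 and Suv39h2, the genes of the labelled genotype. The members, lists and rules were chosen with earlier results of these data known. Other named items were chosen after their values were seen.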

Additional observations from a re-analysis of the deposited data

How the results depend on the processing

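Limits first. Copies near the minimum had power for large changes only, repeated sequences may share reads, and every late comparison shares the same 3 libraries at 0 h. For named families, copies and genes, and for the shares of copies in or behind genes, 709 of 807 alternative values kept direction and side of the threshold, 80 lost a call, 7 gained one, 6 moved and 5 changed sign. The causes were not tested. The sign changes were, on the second scale, L1M5 (0.21), HAL1 (0.15), L1MC4 (0.019) and L1_Mus3_dup11828 (0.19), and, without the second 0 h replicate, L1MEg_dup958 (-0.013, in a range up to 0.16 over the fits without 1 library), all log2 at 48 h.

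Called copies in all (rises and falls) numbered 12 at 3 h, and 7 with a pseudocount of 5, 2 with the minimum at 0 h alone, 1 with only the times compared and 6 in edgeR. With the minimum at 0 h alone they numbered 36, 58 and 146 at 12, 24 and 48 h, against 141, 166 and 250, and with no minimum 273, 688 and 1442. On the second scale 15 rose and 0 fell at 3 h, beside 7 and 5, and 226 rose and 32 fell at 48 h, beside 132 and 118. DESeq2 called 116 rises and 65 falls at 48 h. Called families at 3 h numbered 1, and 0 with no minimum or on the second scale, 2 with no trend and 15 with only the times compared. DESeq2 called 4, of 19 to which it gave an adjusted p. On the second scale called families numbered 53 at 24 h and 81 at 48 h, against 25 at each, and with only the times compared 40 at 48 h. Silencing genes called on the second scale numbered 15 at 12 h and 21 at 24 h, against 7 and 4.

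The 48 h log2 differences of sums on the second scale were 0.59 for all older L1, 0.70 for Lx, 0.59 for L1_Mus, 0.65 for L1_Mur and 0.34 for mammalian L1. Without copies within 5 kb of an LTR copy called up (chosen after seeing the data) they were 0.13 for all and 0.21 for Lx (with rescaling as well, 0.50 for all, 0.57 for Lx, 0.51 for L1_Mus, 0.60 for L1_Mur and 0.29 for mammalian L1), and without those within 20 kb 0.073 for all, 0.14 for Lx, 0.10 for L1_Mus and -0.12 for mammalian L1. Windows of 1 and 20 kb to such an LTR copy held 19.7% and 63.6% of rises and 1.00% and 7.58% of uncalled copies, and the 1 kb window 0.847% of falls.

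Leaving out 1 library gave 4 to 10 called copies at 3 h, 108 to 149 at 12 h, 141 to 153 at 24 h and 188 to 215 at 48 h. Called families ranged over 0 to 1, 21 to 56, 12 to 28 and 17 to 25 at these times, and silencing genes over 3 to 14, 3 to 15, 2 to 17 and 20 to 26. The 3 h copy calls were 4 without the first and 7 without the third 0 h replicate. The 3 h call of L1ME3D was lost in each of these fits. With a replicate block, 131 copies rose and 117 fell and 23 families rose and 5 fell at 48 h, against 132, 118, 21 and 4. Whether the repeat numbers pair the libraries was not settled by the correlation over families.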

Other observations

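Rises of older L1 copies at 48 h were unevenly spread over chromosomes. On chromosome 9, 16 of 54 tested copies rose and 8 fell, on X 13 of 48 rose and 5 fell, and on chromosome 19, 10 of 49 rose and 2 fell. On chromosome 2, 1 of 107 tested copies rose and 20 fell, and on chromosome 15, 0 of 27 rose and 1 fell. Over the whole genome, 26% of all tested repeat copies rose at 48 h and 12.3% fell. The chromosomes named were picked for their high or low counts, and the share for all repeat copies of each was not counted. Whether older L1 differs there from other repeats thus cannot be seen. The copies of 1 chromosome can share a locus, and no test was made of these counts.

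The 490 L1_Mus copies of at least 5000 bases, of 638 such older L1 copies in all, summed to 1672 ± 43.8 scaled reads at 48 h and 1672 ± 87.5 at 0 h (SD, n = 3 each), while the 1397 L1_Mus copies of 2000 to under 5000 bases summed to 3558 ± 186 at 48 h and 2817 ± 152 at 0 h. HAL1 copies within 5 kb of an LTR copy called up at 48 h were 16 in number and summed to 62.4 ± 13.2 scaled reads at 48 h and 9.2 ± 2.9 at 0 h.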
